A study of Mus musculus with 23 samples.

Results

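The 10 genes described here encode the glucose-regulated chaperones, disulfide isomerases and quality-control factors of the endoplasmic reticulum (ER) together with Xbp1, the transcription factor that gives the set its name. They were taken as a list of gene symbols (Hspa5, Hsp90b1, Pdia4, Pdia6, Dnajb9, Sdf2l1, Creld2, Calr, Xbp1 and Herpud1), and all 10 were found among the 49585 genes of the deposited table. Each gene had a mean count above the minimum of 10, so that all 10 were tested.

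Proteins that enter the secretory pathway fold in the ER with the help of the Hsp70 chaperone BiP, the Hsp90 chaperone endoplasmin, lectin chaperones and enzymes that form disulfide bonds. When unfolded protein accumulates, the sensors IRE1, ATF6 and PERK start the unfolded protein response. IRE1 splices Xbp1 mRNA so that it encodes an active transcription factor, and XBP1 and ATF6 raise the transcription of chaperones and of factors for ER-associated degradation. In hepatocytes, which secrete most plasma proteins, this machinery is abundant, and XBP1 is also known as a regulator of lipid synthesis in mouse liver. Counts per gene cannot tell spliced from unspliced Xbp1 mRNA.

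Livers came from C57Bl/6J mice at weaning, 1 library of polyadenylated RNA per animal, in a cross-fostering design that asked when exposure to maternal metabolic syndrome (MetS) changes the liver. MetS-MetS pups (n = 5) had been exposed before birth and while nursed, MetS-Ct pups (n = 6) before birth only, Ct-MetS pups (n = 6) while nursed only, and Ct-Ct pups (n = 6) at neither time. The labels give 45% fat for the high-fat dams and 10% fat for control dams, started at an age of 3 weeks and kept up for 7 weeks in 1 cohort and 17 in the other. Sires ate control diet, and all litters were set to 5 pups and fostered at birth. Animals were taken at postnatal day 21, except MetS-Ct_97, which is labelled day 22. Pups of every group, Ct-Ct included, were raised by a foster dam. The sources used here do not tie single animals to a sex, a litter or a length of the maternal diet. Littermates within a group would make the p-values too small, and littermates in different groups could not be matched.

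The promoters are shown because several of these genes are textbook examples of stress-response elements. The search used 3 letter patterns known from mammalian genes of the unfolded protein response, on both strands and from 250 bases before to 50 bases after each RefSeq transcription start (GRCm38.p6): the ER stress element ERSE (CCAAT, any 9 bases, CCACG), ERSE-II (ATTGG, any 1 base, CCACG) and the core of the unfolded protein response element UPRE (TGACGTG). ERSE was present in 5 of the 10 genes and in 0.119% of 32851 transcription starts of the genome. ERSE-II was present in Herpud1 and in 0.0365% of all starts, and the UPRE core in Hspa5 and in 2.01% of all starts. No 2 matches overlapped. The 220 bases before the start of the 6 genes with ERSE or ERSE-II read as follows, 5′ to 3′ on the strand of the gene, with the matched letters in capitals.
Hspa5, chr2:34771870-34772089 (+): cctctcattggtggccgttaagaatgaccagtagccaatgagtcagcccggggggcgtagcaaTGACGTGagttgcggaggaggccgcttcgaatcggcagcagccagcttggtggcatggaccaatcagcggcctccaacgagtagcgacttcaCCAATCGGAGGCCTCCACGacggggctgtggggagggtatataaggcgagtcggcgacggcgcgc
Hsp90b1, chr10:86705445-86705664 (−): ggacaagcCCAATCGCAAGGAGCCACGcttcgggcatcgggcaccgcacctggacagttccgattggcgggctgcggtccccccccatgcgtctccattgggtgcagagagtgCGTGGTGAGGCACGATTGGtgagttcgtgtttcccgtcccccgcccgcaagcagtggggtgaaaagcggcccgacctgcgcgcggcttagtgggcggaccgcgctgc
Pdia6, chr12:17266369-17266588 (+): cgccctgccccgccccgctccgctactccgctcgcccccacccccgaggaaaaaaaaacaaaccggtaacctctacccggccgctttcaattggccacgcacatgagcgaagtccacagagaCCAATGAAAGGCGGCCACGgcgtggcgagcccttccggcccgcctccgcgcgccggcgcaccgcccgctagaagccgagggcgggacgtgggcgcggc
Creld2, chr15:88819426-88819645 (+): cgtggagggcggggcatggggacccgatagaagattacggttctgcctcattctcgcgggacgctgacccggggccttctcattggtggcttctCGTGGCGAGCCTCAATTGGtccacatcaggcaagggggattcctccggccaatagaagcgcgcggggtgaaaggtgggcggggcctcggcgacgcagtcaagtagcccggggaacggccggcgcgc
Calr, chr8:84846932-84847151 (−): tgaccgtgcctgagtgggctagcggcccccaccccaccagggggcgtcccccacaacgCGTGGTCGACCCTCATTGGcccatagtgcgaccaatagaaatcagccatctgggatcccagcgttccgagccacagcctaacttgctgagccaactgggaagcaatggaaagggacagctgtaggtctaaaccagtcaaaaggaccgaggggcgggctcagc
Herpud1, chr8:94386209-94386428 (+): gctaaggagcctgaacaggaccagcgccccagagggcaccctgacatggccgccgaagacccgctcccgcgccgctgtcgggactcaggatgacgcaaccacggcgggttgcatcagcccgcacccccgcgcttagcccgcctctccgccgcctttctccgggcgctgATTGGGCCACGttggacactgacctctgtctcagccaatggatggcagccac

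In Hspa5 the ERSE lay at −65 to −47 on the sense strand and the UPRE core at −157 to −151. Hsp90b1 held a sense ERSE at −212 to −194 and an antisense ERSE at −107 to −89. The Pdia6 match, at −98 to −80, was sense, whereas those of Creld2 (−126 to −108) and Calr (−162 to −144) were antisense. Herpud1 alone of the 10 held ERSE-II, at −52 to −42. For Pdia4, Dnajb9, Sdf2l1 and Xbp1 the search found none of these letters in this window, which says nothing of other windows or of looser forms of the elements. The bounds that GENCODE gives for Hspa5, Hsp90b1, Pdia6 and Calr reach into the printed stretch, since some of its transcripts start earlier than the RefSeq start. These are matches of letters, and no binding was measured.

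**Figure D1:**
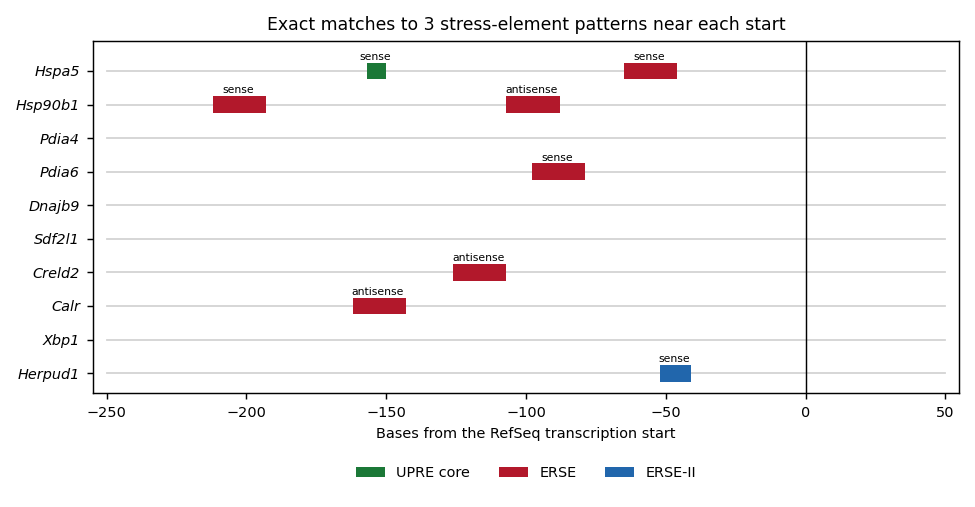
Exact matches to ERSE, ERSE-II and the UPRE core around the RefSeq start of each gene, with the distance from the start in bases on the x axis and 1 row per gene; colours give the pattern and the words sense or antisense its strand. Hspa5, Hsp90b1, Pdia6, Creld2, Calr and Herpud1 hold a match and 4 genes hold none.

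Library totals ranged from 16876460 (MetS-MetS_110) to 34527932 counts, and even Creld2, the gene with the lowest counts of the set, had 217 to 1130 counts per library. The library total was related to the level of 0 of the 10 genes after group means were removed (edgeR CPM, permutation test, adjusted p of at least 0.55). The liver label was checked against hepatocyte markers: Alb was at 84700 to 124000 CPM (counts-per-million on the effective library size) in every library and 9 of 10 markers were abundant, while Trf was at most 0.135 CPM. Plasma cells and the exocrine pancreas are rich in the same ER genes. Of plasma and B cell markers Jchain was at most 0.813 CPM and Mzb1 at most 0.896 CPM, while Ighm was at 7.28 to 17.0 CPM. Of 14 acinar markers 7 had no count in any library, and the highest, Cela1, was at 3.44 to 23.8 CPM. An exact 0 may say little in this table, since Trf, a major hepatocyte gene, was near 0 and the clock gene Per3 at 0 in all 23 libraries. Over all genes MetS-MetS_39 stood apart from its group: the chi-square per gene between the counts of 2 libraries was 83.3 to 92.5 in its pairs with the other MetS-MetS livers and 18.6 to 40.7 among those 4, while pairs in other groups reached 133.3. It had 2.37 CPM of the clock gene Nr1d1, against 80.6 to 121 CPM in the other MetS-MetS livers, and MetS-Ct_53 (1.48 CPM) and Ct-MetS_50 (2.06 CPM) were as low. Single livers stood apart in the set itself. Ct-MetS_63 had the highest level of 23 for Hsp90b1, Pdia4, Pdia6, Sdf2l1 and Calr, MetS-MetS_39 for Hspa5, Creld2 and Herpud1, and MetS-Ct_120 for Dnajb9 together with the lowest Sdf2l1. In whole liver, fewer cells of a type and less RNA per cell cannot be told apart.

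Levels of different genes were compared per kilobase of exon. Calr (204.1 ± 53.01 CPM per kb, SD over 23 libraries), Hsp90b1 (179.3 ± 20.3), Herpud1 (166.6 ± 61.7) and Hspa5 (125.3 ± 37.9) were the most abundant, each above 97.9% of the tested genes or more. Pdia4 (73.5 ± 11.2), Pdia6 (73.4 ± 13.9) and Xbp1 (59.1 ± 11.02) followed. Sdf2l1 (21.4 ± 8.74), Dnajb9 (17.4 ± 6.23) and Creld2 (13.1 ± 6.20) were the lowest, still above 81.6% of the tested genes or more. Neighbours in this order mostly overlapped: Pdia4 exceeded Pdia6 in 12 of 23 libraries, Sdf2l1 exceeded Dnajb9 in 13 and Hsp90b1 exceeded Herpud1 in 14, whereas Xbp1 exceeded Sdf2l1 in all 23.

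Exposure at both times was set against no exposure first. Herpud1 rose in MetS-MetS livers, and it was the only 1 of the 10 genes to pass edgeR's quasi-likelihood test at a Benjamini-Hochberg adjusted p under 0.05 over all genes. Of all 14466 genes tested, 5.78% passed in either direction and 3.06% were higher, so 1 called gene of 10 is near the background. At an unadjusted p under 0.05 it was again 1 of 10, against 24.4% of all genes. The chaperones and disulfide isomerases did not move as a group. Of the 10 genes 4 had a positive and 6 a negative log2 fold change, with a median of −0.022 against −0.0038 over all genes, and a median size of 0.17 against 0.18 over all genes.

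**Figure D2:**
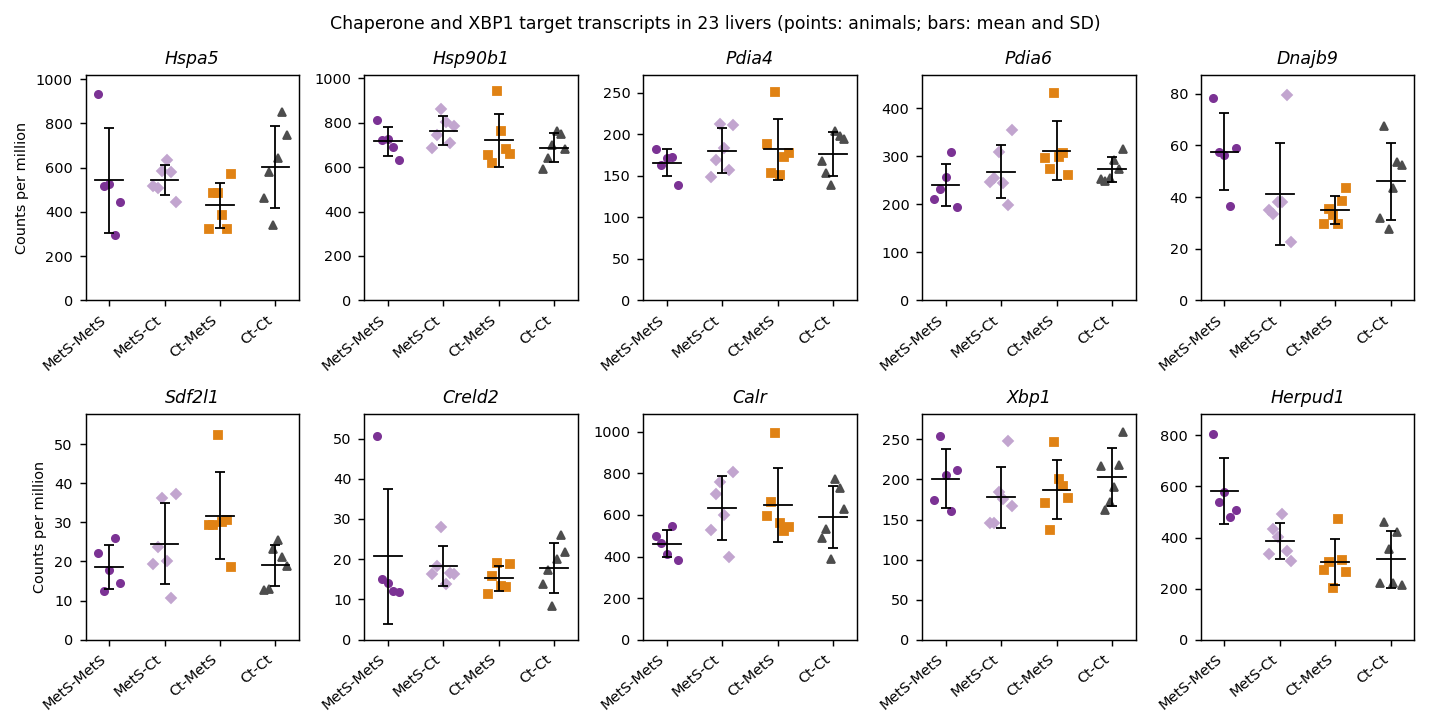
Level of each gene in CPM (y axis, 1 panel per gene, from 0) in MetS-MetS, MetS-Ct, Ct-MetS and Ct-Ct livers; points are animals and bars the group mean with its SD. Herpud1 is the 1 gene whose MetS-MetS livers, at 478.5 CPM or more, all lie above the highest Ct-MetS (472.9 CPM) and Ct-Ct (458.8 CPM) livers.

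Herpud1 (ENSMUSG00000031770, chr8:94386438-94395377, + strand) encodes a ubiquitin-like membrane protein that organises the HRD1 complex of ER-associated degradation. It was at 804.1 CPM in MetS-MetS_39, 537.5 in MetS-MetS_109, 577.0 in MetS-MetS_110, 478.5 in MetS-MetS_154 and 509.1 in MetS-MetS_157. MetS-Ct livers ranged from 308.3 to 492.9 CPM (median 373.7), Ct-MetS livers from 201.4 to 472.9 CPM (median 287.9) and Ct-Ct livers from 214.5 to 458.8 CPM (median 288.2). Every MetS-MetS liver therefore exceeded every Ct-MetS and Ct-Ct liver, while the MetS-MetS and MetS-Ct ranges overlapped. Against Ct-Ct, 4.41% of all tested genes had ranges that did not overlap, and against Ct-MetS 1.76%. The mean was 581.2 ± 129.8 CPM in MetS-MetS (SD, n = 5) and 315.2 ± 111.0 CPM in Ct-Ct (n = 6), a 1.84-fold rise (log2 fold change 0.88 ± 0.22 SE, adjusted p = 0.0236).

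The Herpud1 call was kept in 18 of 23 fits that each left out 1 library and was lost without MetS-MetS_39 (log2 fold change 0.74, adjusted p = 0.054), MetS-MetS_110 (adjusted p = 0.0505), Ct-Ct_4 (0.0547), Ct-Ct_129 (0.0657) or Ct-Ct_139 (0.0581). It was also lost with only the MetS-MetS and Ct-Ct libraries in the fit (adjusted p = 0.0537), and kept in the other 7 alternative settings, with adjusted p from 0.00315. Antisense to Herpud1 the annotation has Gm15890, with a mean of 14.4 counts and exons that do not overlap those of Herpud1.

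In the other comparisons Herpud1 was on the higher side wherever prenatal exposure was added, and passed in none of them by edgeR. MetS-MetS exceeded Ct-MetS by a log2 fold change of 0.93 ± 0.22 (adjusted p = 0.125). It was higher too where nursing exposure was added to prenatal exposure: MetS-MetS exceeded MetS-Ct by 0.59 ± 0.22 (adjusted p = 0.232). The 11 livers exposed before birth all lay above the mean log2 CPM of the 12 others, although the ranges overlapped. Single livers are set against group means on the log2 scale throughout. The log2 fold change with prenatal exposure was 0.61 ± 0.15 (adjusted p = 0.156). DESeq2 called Herpud1 in MetS-MetS against Ct-MetS (adjusted p = 0.012) and with prenatal exposure (adjusted p = 0.0237). Postnatal exposure gave 0.27 ± 0.15 (adjusted p = 0.32), and the interaction, the excess of the joint exposure over the sum of both single ones, 0.64 ± 0.30 (adjusted p = 0.892). MetS-Ct against Ct-Ct was at 0.29 ± 0.21 and Ct-MetS against Ct-Ct at −0.05 ± 0.21 (adjusted p = 0.851 and 0.958).

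Other measures differed between the same livers, and their part in the Herpud1 difference was not tested. The summed level of 11 macrophage markers was 566 to 950 CPM in MetS-MetS and 450 to 578 CPM in Ct-Ct. The sum of 10 hepatocyte markers was 150000 to 169000 CPM in MetS-MetS and 121000 to 154000 CPM in Ct-Ct. Of 10 genes of the response to feeding, 2 were called higher and 2 lower, where 5.78% of all genes passed in either direction. Their sum was 6270 to 9660 CPM in MetS-MetS and 9810 to 31400 CPM in Ct-Ct, with no overlap. It gives no direction of the response, since 4 of the 10 had a positive and 6 a negative log2 fold change. Scd1, a desaturase of fatty acid synthesis, had the largest mean of the 10 in Ct-Ct (13330 CPM). It was at 1266 to 2880 CPM in MetS-MetS and 2906 to 23010 CPM in Ct-Ct. Cpt1a went the other way, at 804.6 to 1089 CPM in MetS-MetS and 357.3 to 672.2 CPM in Ct-Ct. Of 11 erythroid markers 5 were called higher, while their sums overlapped (426 to 775 CPM in MetS-MetS and 287 to 833 CPM in Ct-Ct). Of the 11 macrophage markers 7 were called higher, and of all genes 3.06%. The 10 plasma and B cell markers summed to 150 to 193 CPM in MetS-MetS and 124 to 168 CPM in Ct-Ct, most of it Sdc1, which hepatocytes also express. Clock genes varied widely. The clock gene Per1 had a mean of 76.9 ± 19.3 CPM in MetS-MetS and 43.5 ± 49.7 CPM in Ct-Ct. The clock output gene Dbp had 141.7 ± 104.6 CPM in MetS-MetS and 25.9 ± 12.1 CPM in Ct-Ct. Of 11 tested clock genes 0 passed edgeR's test and 4 had an unadjusted p under 0.05, against 24.4% of all genes. DESeq2 called 1 of them and limma-voom 0. With group means removed, Herpud1 followed Per1 at r = 0.691 and rho = 0.591 (permutation p = 0.00475 for r, adjusted p = 0.261) and Ciart at r = 0.647 and rho = 0.638 (p = 0.0035, adjusted p = 0.261). Without the 2 livers farthest from the median of Herpud1 these were r = 0.579 and r = 0.5, and 0 of the 110 relations between the 10 genes and 11 clock genes passed.

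Xbp1 (ENSMUSG00000020484, chr11:5520659-5525893, + strand) encodes the factor itself. MetS-MetS livers had 160.0 to 254.1 CPM, MetS-Ct livers 145.1 to 247.5, Ct-MetS livers 136.6 to 246.7 and Ct-Ct livers 161.3 to 259.8. The 4 ranges overlapped almost wholly, and the log2 fold change of MetS-MetS over Ct-Ct was −0.02 ± 0.16 (adjusted p = 0.961).

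BiP and its partners spread far more from liver to liver. Hspa5 (ENSMUSG00000026864, chr2:34771970-34777547, + strand), which encodes BiP, was at 931.7 CPM in MetS-MetS_39, 518.3 in MetS-MetS_109, 524.7 in MetS-MetS_110, 294.7 in MetS-MetS_154 and 442.8 in MetS-MetS_157. It ranged from 447.1 to 633.8 CPM in MetS-Ct (median 549.3), 322.5 to 570.5 in Ct-MetS (median 435.0) and 341.4 to 850.8 in Ct-Ct (median 611.5). All 4 ranges overlapped, and MetS-MetS held both the highest and the lowest liver of the 23. MetS-MetS over Ct-Ct gave a log2 fold change of −0.16 ± 0.24 (adjusted p = 0.734), and −0.44 ± 0.22 (adjusted p = 0.215) without MetS-MetS_39. In Ct-MetS all 6 livers lay below the Ct-Ct mean, with a log2 fold change of −0.50 ± 0.23 that did not pass (unadjusted p = 0.039, adjusted p = 0.324).

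Dnajb9 (ENSMUSG00000014905, chr12:44205559-44210326, − strand) encodes a J-domain co-chaperone of BiP that also keeps the sensor IRE1 in check. Its levels were 78.4, 57.5, 56.4, 36.5 and 58.8 CPM in MetS-MetS_39, MetS-MetS_109, MetS-MetS_110, MetS-MetS_154 and MetS-MetS_157, against 22.6 to 79.6 CPM in MetS-Ct (median 36.5), 29.4 to 43.4 in Ct-MetS (median 34.3) and 27.7 to 67.6 in Ct-Ct (median 47.9). In MetS-Ct the top of the range was 1 liver, MetS-Ct_120, and the others were at 38.1 CPM or less. The mean was 57.5 ± 14.8 CPM in MetS-MetS and 34.9 ± 5.41 CPM in Ct-MetS, a log2 fold change of 0.72 ± 0.26 (unadjusted p = 0.011, adjusted p = 0.222) that all 5 MetS-MetS livers shared relative to the Ct-MetS mean, although the ranges overlapped. Against Ct-Ct the log2 fold change was 0.32 ± 0.26 in MetS-MetS, −0.17 ± 0.25 for MetS-Ct and −0.40 ± 0.25 for Ct-MetS. Without MetS-Ct_120 the value of MetS-Ct was −0.46 ± 0.21 (adjusted p = 0.811). MetS-MetS over MetS-Ct was 0.48 ± 0.26 (adjusted p = 0.401) with all libraries and 0.78 ± 0.22 (adjusted p = 0.0983) without that liver, and neither passed.

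Sdf2l1 (ENSMUSG00000022769, chr16:17130138-17132383, − strand), a soluble partner of BiP and its J-domain proteins, had another order of groups. It was at 22.2, 12.5, 17.8, 26.1 and 14.6 CPM in MetS-MetS_39, MetS-MetS_109, MetS-MetS_110, MetS-MetS_154 and MetS-MetS_157, and ranged from 10.8 to 37.2 CPM in MetS-Ct (median 21.9), 18.6 to 52.4 in Ct-MetS (median 29.8) and 12.7 to 25.5 in Ct-Ct (median 19.9). All ranges overlapped. The mean was 31.7 ± 11.1 CPM in Ct-MetS and 19.0 ± 5.27 CPM in Ct-Ct, a log2 fold change of 0.74 ± 0.28 (unadjusted p = 0.014, adjusted p = 0.208), with all 6 Ct-MetS livers above the Ct-Ct mean. It was 0.54 ± 0.27 (adjusted p = 0.41) without Ct-MetS_63. MetS-MetS over Ct-MetS gave −0.77 ± 0.29 (unadjusted p = 0.0162, adjusted p = 0.235), with all 5 MetS-MetS livers below the Ct-MetS mean.

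Hsp90b1 (ENSMUSG00000020048, chr10:86690209-86705509, − strand), which encodes endoplasmin, was the steadiest gene of the set. Its group means were 717.7 ± 65.4 CPM in MetS-MetS, 765.1 ± 63.5 for MetS-Ct, 720.2 ± 119 for Ct-MetS and 688.1 ± 65.5 for Ct-Ct. All log2 fold changes between pairs of groups lay between −0.09 and 0.15. Its exons overlap those of the antisense pseudogene 1810014B01Rik (mean count 649), and the sources used here do not say whether counting was stranded.

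Pdia4 and Pdia6 encode disulfide isomerases with several thioredoxin-like domains. Pdia4 (ENSMUSG00000025823, chr6:47796141-47813430, − strand) averaged 165.7 ± 16.2 CPM in MetS-MetS, 180.2 ± 27.2 for MetS-Ct, 182.0 ± 36.6 for Ct-MetS and 175.9 ± 26.6 for Ct-Ct, and its log2 fold changes between pairs of groups lay between −0.14 and 0.05. Pdia6 (ENSMUSG00000020571, chr12:17266545-17284770, + strand) averaged 240.7 ± 44.4 CPM in MetS-MetS, 267.8 ± 55.3 for MetS-Ct, 311.6 ± 61.4 for Ct-MetS and 273.3 ± 26.3 for Ct-Ct. The widest gap, MetS-MetS over Ct-MetS, was −0.37 ± 0.15 (unadjusted p = 0.0174, adjusted p = 0.237), and −0.26 ± 0.14 (adjusted p = 0.476) without Ct-MetS_63. Creld2 (ENSMUSG00000023272, chr15:88819646-88826683, + strand), a secreted and ER-resident factor with a disulfide isomerase-like domain, was the most variable gene. It was at 50.6 CPM in MetS-MetS_39 and 11.9 to 15.0 CPM in the other 4 MetS-MetS livers, and ranged from 13.8 to 27.9 CPM in MetS-Ct (median 16.5), 11.5 to 19.0 in Ct-MetS (median 14.6) and 8.36 to 26.1 in Ct-Ct (median 18.6). The direction of MetS-MetS against Ct-Ct turned on that 1 liver: the log2 fold change was 0.21 ± 0.33 (adjusted p = 0.744) with MetS-MetS_39 and −0.44 ± 0.24 (adjusted p = 0.271) without it.

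Calr (ENSMUSG00000003814, chr8:84841850-84846934, − strand) encodes calreticulin, the lectin chaperone that holds monoglucosylated glycoproteins and stores calcium. Its levels in MetS-MetS were 497.5 CPM in MetS-MetS_39, 466.8 in MetS-MetS_109, 413.9 in MetS-MetS_110, 544.8 in MetS-MetS_154 and 382.8 in MetS-MetS_157. It ranged from 399.1 to 808.7 CPM in MetS-Ct (median 649.4), 521.7 to 994.6 in Ct-MetS (median 579.4) and 387.1 to 773.3 in Ct-Ct (median 580.6). All 5 MetS-MetS livers lay below the mean of each other group, with overlapping ranges. The log2 fold change of MetS-MetS was −0.36 ± 0.20 over Ct-Ct (adjusted p = 0.268), −0.46 ± 0.20 over MetS-Ct (adjusted p = 0.305) and −0.49 ± 0.20 over Ct-MetS (adjusted p = 0.244), and none passed.

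**Figure D3:**
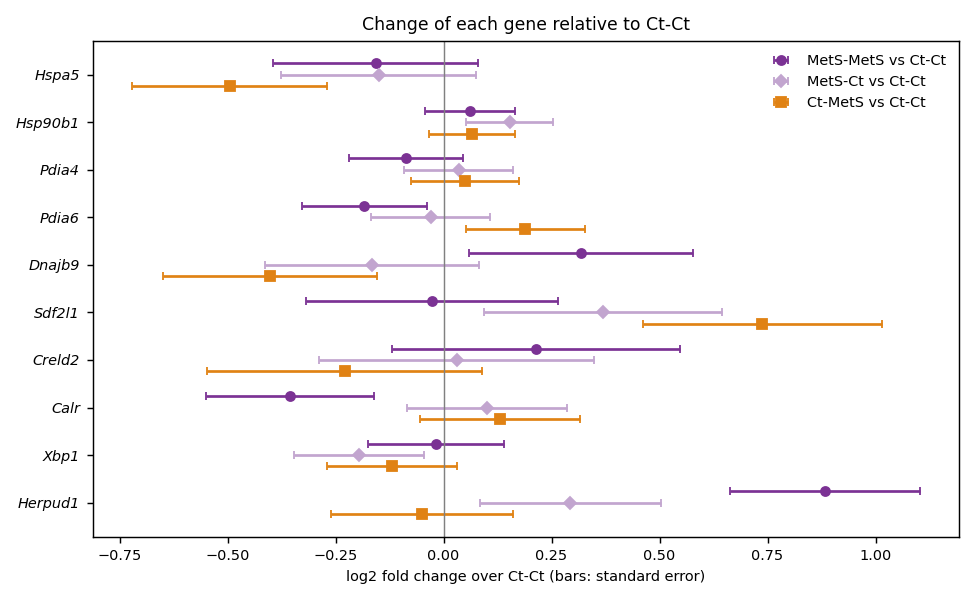
Log2 fold change of MetS-MetS, MetS-Ct and Ct-MetS over Ct-Ct (x axis) for each gene (y axis), with bars of 1 standard error; the 3 comparisons share the Ct-Ct livers. Herpud1 in MetS-MetS, at 0.88, is the 1 value that passed.

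Counted over the set, edgeR called 0 of the 10 genes in each of the other 8 comparisons. In MetS-Ct against Ct-Ct 0.0% of all genes passed, and 0 of the 10 had an unadjusted p under 0.05 (5.9% of all genes). In Ct-MetS against Ct-Ct 0.954% of all genes passed, and Hspa5 and Sdf2l1 had an unadjusted p under 0.05 (13.9% of all genes). Both comparisons share the Ct-Ct livers with each other and with MetS-MetS against Ct-Ct. In MetS-MetS against MetS-Ct 0.415% of all genes passed, and Calr and Herpud1 had an unadjusted p under 0.05 (14.1%). In MetS-Ct against Ct-MetS 0.076% passed, with 0 of the 10 at an unadjusted p under 0.05 (12.6%). With postnatal exposure 4.22% of all genes passed, and 0 of the 10 had an unadjusted p under 0.05 (21.2%). DESeq2 and limma-voom also called 0 of the 10 in these 5 comparisons.

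In MetS-MetS against Ct-MetS 0.0% of all genes passed, while 5 of the 10 (Pdia6, Dnajb9, Sdf2l1, Calr and Herpud1) had an unadjusted p under 0.05, against 15.6% of all genes. DESeq2 called 1, Herpud1, and limma-voom 0. The median size of the log2 fold change was 0.41 over the 10 genes and 0.15 over all genes, with Herpud1 and Dnajb9 positive and Sdf2l1, Calr and Pdia6 negative. These negative values leaned on Ct-MetS_63, the liver with the highest Sdf2l1, Calr and Pdia6. Without it edgeR gave −0.56 ± 0.28 for Sdf2l1, −0.32 ± 0.18 for Calr and −0.26 ± 0.14 for Pdia6. Dnajb9 was then at 0.71 ± 0.28 and Herpud1 at 0.84 ± 0.22. With prenatal exposure 0.00691% of all genes passed and 1 of the 10, Herpud1, had an unadjusted p under 0.05 (16.3%), with 1 called by DESeq2 and 0 by limma-voom.

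For the interaction 0.0% of all genes passed by edgeR, while 4 of the 10 had an unadjusted p under 0.05, against 5.44% of all genes, and DESeq2 and limma-voom called 0. Sdf2l1 had a log2 interaction of −1.13 ± 0.40, Calr of −0.59 ± 0.27, Dnajb9 of 0.89 ± 0.36 and Herpud1 of 0.64 ± 0.30, each with an adjusted p of 0.892. Sdf2l1 and Calr thus had fitted levels in MetS-MetS below, and Dnajb9 and Herpud1 above, the sum of both single exposures. The median size was 0.45 over the 10 genes and 0.15 over all genes. None of these values passed, and the 10 genes are not independent of each other. They also depend on single livers. Without Ct-MetS_63 the log2 fold change of Ct-MetS over Ct-Ct went from 0.74 to 0.54 ± 0.27 for Sdf2l1 and from 0.13 to −0.03 ± 0.17 for Calr. For Herpud1 it went from −0.05 to 0.04 ± 0.21, and for Dnajb9 from −0.40 to −0.39 ± 0.27. For Sdf2l1, Calr and Herpud1 this brought the sum of both single exposures nearer to MetS-MetS.

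Genes of the wider pathway were followed from lists of other ER folding factors, sensors, degradation factors, translocation and secretion factors, the PERK branch, and chaperones of the cytosol and mitochondrion. In MetS-MetS against Ct-Ct 0 of 26 other ER folding factors passed by edgeR, 9 had an unadjusted p under 0.05, and DESeq2 called 2 and limma-voom 0. Of all genes, 5.78% passed and 24.4% had an unadjusted p under 0.05, the background for each list of this comparison. The median log2 fold change of these factors was −0.20, against −0.0038 over all genes. Hyou1, an Hsp110-type chaperone and exchange factor of BiP, was at 81.1 ± 39.9 CPM in MetS-MetS and 114.4 ± 48.5 CPM in Ct-Ct (log2 fold change −0.50 ± 0.33, adjusted p = 0.366). Of 21 degradation factors edgeR called 0 (4 at an unadjusted p under 0.05, 1 by DESeq2, 0 by limma-voom), and the ligase gene Syvn1, whose product HRD1 works with HERPUD1, was at −0.01 ± 0.20 and its partner Sel1l at 0.0021 ± 0.083. The 3 sensors did not pass by edgeR. Ern1, which encodes IRE1, was at −0.53 ± 0.17 (adjusted p = 0.0645), Atf6 at 0.05 ± 0.13 and Eif2ak3, which encodes PERK, at −0.33 ± 0.17 (adjusted p = 0.241).

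Single genes of these lists passed in that comparison, where 5.78% of all genes passed. Of 11 sensors and transducers edgeR called 1, DESeq2 2 and limma-voom 1. The gene called by edgeR was Creb3l3, which encodes the liver's membrane-bound transcription factor CREBH. It rose to 384.1 ± 48.7 CPM in MetS-MetS, against 234.5 ± 35.1 CPM in Ct-Ct (log2 fold change 0.71 ± 0.14, adjusted p = 0.0106), with ranges that did not overlap (4.41% of all genes). It rose with postnatal exposure too (0.43 ± 0.10, adjusted p = 0.0162), the 1 gene of these 11 that edgeR called there, where 4.22% of all genes passed. Both Creb3l3 calls were kept without any 1 of the 23 libraries. Asns, the asparagine synthetase and a target of ATF4, fell to 4.85 ± 1.19 CPM in MetS-MetS, against 9.98 ± 1.17 CPM in Ct-Ct (−1.05 ± 0.19, adjusted p = 0.00724), also kept without any 1 library. Of 14 PERK-branch genes Asns fell and Ppp1r15b rose (0.39 ± 0.11, adjusted p = 0.0397), while Atf4 was at −0.04 ± 0.10 and Ddit3, which encodes CHOP, at −0.17 ± 0.26. DESeq2 called 3 of the 14 and limma-voom 2.

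Among 49 tested translocation and secretion genes Spcs1 (0.31 ± 0.08, adjusted p = 0.0223) and Mia3 (0.45 ± 0.12, adjusted p = 0.0348) rose, and the ribosome-binding gene Rrbp1 (−0.64 ± 0.15, adjusted p = 0.0203) and Ssr3 (−0.35 ± 0.10, adjusted p = 0.0439) fell, 4 in all, while DESeq2 called 9 and limma-voom 4. Of 18 cytosolic and mitochondrial chaperone genes Dnaja1, a co-chaperone of cytosolic Hsp70, rose (0.49 ± 0.13, adjusted p = 0.0322), and Hspa8 was at 0.47 ± 0.17 (adjusted p = 0.103), with 2 called by DESeq2 and 1 by limma-voom. Of 23 fits that each left out 1 library, the call was kept in 21 for Spcs1 and Rrbp1, 16 for Mia3 and Dnaja1, 15 for Ppp1r15b and 11 for Ssr3, and the highest adjusted p were 0.0632 without Ct-Ct_129 for Spcs1, 0.0525 without MetS-MetS_157 for Rrbp1, 0.0824 without Ct-Ct_129 for Mia3, 0.0846 without Ct-Ct_129 for Dnaja1, 0.101 without Ct-Ct_129 for Ppp1r15b and 0.103 without MetS-MetS_157 for Ssr3. In Ct-MetS against Ct-Ct the oxidase gene Ero1lb, which reoxidises disulfide isomerases, fell (28.4 ± 4.82 CPM in Ct-MetS, 44.4 ± 9.41 CPM in Ct-Ct, log2 fold change −0.65 ± 0.14, adjusted p = 0.0267), a call lost without Ct-Ct_10 (adjusted p = 0.0576), Ct-Ct_129 (0.059), Ct-Ct_139 (0.0677) or Ct-MetS_169 (0.0715). Ero1lb was the 1 of 26 other ER folding factors that edgeR called in that comparison, where 0.954% of all genes passed. With postnatal exposure Edem1, a degradation lectin, fell (log2 fold change −0.23 ± 0.06, adjusted p = 0.0421). It was the 1 of 21 degradation factors that edgeR called there, where 4.22% of all genes passed, so this is near the background. The Edem1 call was kept in 5 of the 23 fits without 1 library and was at an adjusted p of 0.0751 without Ct-Ct_129.

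How the 10 genes vary among themselves was examined within groups. The genes were taken as a list of symbols, which was chosen with earlier results of these data known. The SD of log2 CPM after group means were removed was 0.16 for Hsp90b1, 0.22 for Pdia4, 0.24 for Pdia6 and 0.27 for Xbp1, near or below the median of 0.25 over all tested genes. It was 0.34 for Calr, 0.38 for Herpud1, 0.42 for Hspa5, 0.45 for Dnajb9, 0.51 for Sdf2l1 and 0.55 for Creld2, whose spread exceeded that of 86.9% of the tested genes. Over the 23 livers the highest level was 6.06 times the lowest for Creld2, 4.88 times for Sdf2l1, 3.16 times for Hspa5 and 1.59 times for Hsp90b1.

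**Figure D4:**
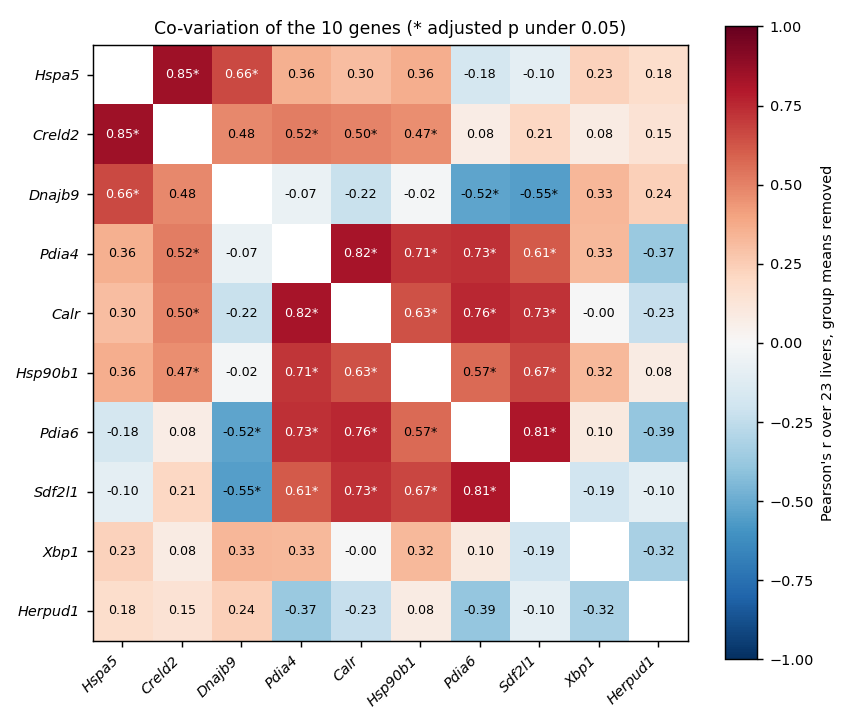
Pearson's r between log2 CPM of each pair of genes over 23 livers after group means were removed (rows and columns are genes, colours and numbers are r); asterisks mark an adjusted p under 0.05. Pdia4, Calr, Hsp90b1, Pdia6 and Sdf2l1 form a block of positive values from 0.57 to 0.82, Hspa5 stands with Creld2 and Dnajb9, and Xbp1 and Herpud1 have no asterisk.

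Across livers the genes did not move as 1 set. Of the 45 pairs 17 passed a two-sided permutation test of Pearson's r within groups (100000 permutations, Benjamini-Hochberg adjusted p under 0.05 over 45 pairs), 15 of them positive and 2 negative. All 10 pairs among Hsp90b1, Pdia4, Pdia6, Sdf2l1 and Calr passed. The closest were Pdia4 with Calr (r = 0.823, rho = 0.788, adjusted p = 0.00135) and Pdia6 with Sdf2l1 (r = 0.806, rho = 0.755, adjusted p = 0.00146), and without the 2 livers farthest from the median of the first gene both had r = 0.73. The lowest r of this block was 0.569, for Hsp90b1 with Pdia6, which was 0.401 without the 2 farthest livers.

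Hspa5 followed a different pair of genes. It varied with Creld2 (r = 0.846, rho = 0.776, permutation p = 1e-05, the smallest that 100000 permutations can give, adjusted p = 0.00045), with r = 0.794 without the 2 farthest livers and r of at least 0.795 without any 1 liver. With Dnajb9 it had r = 0.657 and rho = 0.634 (adjusted p = 0.00292), and r = 0.574 without the 2 farthest. Creld2 itself passed with Pdia4 (r = 0.515), Calr (0.496) and Hsp90b1 (0.468), of which the rank correlation passed for Calr (adjusted p = 0.0363) and not for Pdia4 (0.0666) or Hsp90b1 (0.138). With Dnajb9 it did not pass (r = 0.484, adjusted p = 0.0717). Between Hspa5 and Sdf2l1 r was −0.0997, and between Hspa5 and Pdia6 −0.176, and neither passed.

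Both negative pairs that passed involved Dnajb9. Against Sdf2l1 r was −0.549 (adjusted p = 0.0489), with rho = −0.429 (adjusted p = 0.138), and against Pdia6 r was −0.524 (adjusted p = 0.0483), with rho = −0.45 (adjusted p = 0.105). Without the 2 livers farthest from the median of Dnajb9 the first was −0.267, so that it rests on those livers, among them MetS-Ct_120, which had 79.6 CPM of Dnajb9 and 10.8 CPM of Sdf2l1. Xbp1 and Herpud1 passed in none of their pairs, with r of −0.389 to 0.334. Levels of all genes come from the same libraries, so these relations describe livers, not a direction of control.

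**Figure D5:**
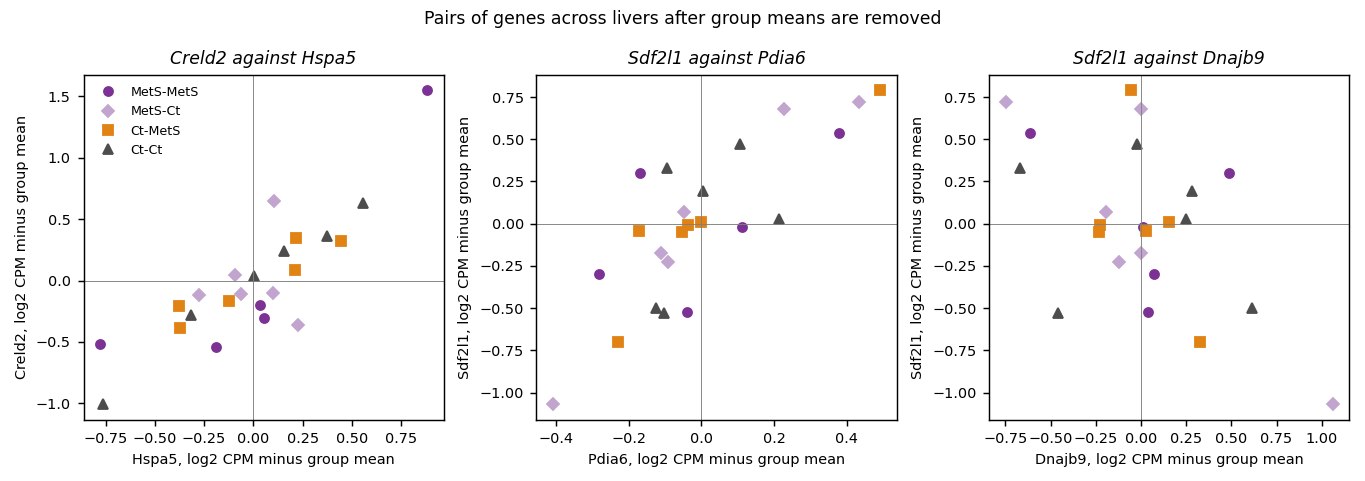
Log2 CPM minus the group mean for Creld2 against Hspa5, Sdf2l1 against Pdia6 and Sdf2l1 against Dnajb9, 1 point per liver and 1 symbol per group (MetS-MetS, MetS-Ct, Ct-MetS, Ct-Ct). The first 2 panels rise (r = 0.846 and 0.806), with MetS-MetS_39 at the upper right of the first, and the last falls (r = −0.549), with MetS-Ct_120 at its lower right.

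The genes most like Hspa5 were sought among 11242 genes with a mean count of at least 50, by Pearson's r over the 23 livers after group means were removed, and are given as a description. Predicted genes, pseudogenes and the other 9 genes of the set were left out. Hyou1 (r = 0.936, rho = 0.918) and Manf (r = 0.935, rho = 0.922), which encodes a small secreted ER-stress protein, were closest, above every gene of the set itself, of which Creld2 was nearest at 0.846. They were followed by Mettl1 (0.866), a tRNA methyltransferase gene, Syvn1 (0.859), Eif3b (0.855), which encodes a subunit of a translation initiation factor, Sec22b (0.816), a gene of vesicle fusion, Lrrc59 (0.788), which encodes an ER membrane protein that binds ribosomes, and Ears2 (0.785), a mitochondrial glutamyl-tRNA synthetase gene. Without the 2 livers farthest from the median of Hspa5 these r were 0.744 to 0.924. Hyou1 and Manf also shared the low side of Hspa5 in Ct-MetS, at log2 fold changes over Ct-Ct of −0.73 ± 0.31 (adjusted p = 0.293) and −0.70 ± 0.32 (adjusted p = 0.34), with all 6 Ct-MetS livers below the Ct-Ct mean for both, and neither passed.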

How the data were processed

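Polyadenylated liver RNA of 23 mice was sequenced, with 1 directional library per animal, per the labels. The authors deposited 1 table of whole-number counts. Its name calls it normalised, but it was read as raw counts because the values are whole and the library totals differ (16876460 to 34527932). FastQC, STAR, HTSeq and DESeq2 were used, per the submitters' processing notes; their versions, the genome build, the annotation and the strand setting were not given in the sources used here. Samples were grouped by the treatment in their labels. Symbols matched 49326 of 49585 identifiers, and 0 columns of the table were unused. Library pairs within a group differed by more than sampling noise (chi-square per gene of at least 18.6 over 55 pairs), and each library counted as 1 replicate.

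The genes whose mean count reached 10, 14466 in all, were tested with edgeR's quasi-likelihood test (edgeR 4.0.16, R 4.3.3), scaled by TMM and fitted robustly to the 23 libraries with a mean for each group and a common spread. Genes passed at a Benjamini-Hochberg adjusted p under 0.05 over all genes tested. The SE is the log2 fold change divided by the square root of F. CPM uses effective library sizes; correlations use log2 CPM with a prior count of 2. The fit was tested on simulated data. Alternatives were DESeq2 1.42.0, limma-voom (limma 3.58.1), other scaling factors, other count minimums, no robust estimation, only the compared groups in the fit, and leaving out each library. Promoters were from RefSeq (GRCm38.p6), and gene bounds, exon lengths and overlaps from GENCODE on GRCm38. P-values reflect the spread between these animals, and PCR copies were not distinguished.

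The 10 genes and the pathway lists were chosen with earlier results of these data known. Named genes were the 10 genes, up to 4 genes of each pathway list by smallest p in MetS-MetS against Ct-Ct or with postnatal exposure, preset sensors and partners, and the 8 genes most like Hspa5; of the genes taken by p, those that passed are described. Of the genes of the response to feeding, 1 is not reported here.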

Additional observations from a re-analysis of the deposited data

Results flagged for a closer look

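A single liver lay far from the rest of its group in 6 of the 40 combinations of gene and group, by Dixon's test on CPM. For independent, normally distributed values chance gives about 1 in 20. That share is no strict yardstick here, since CPM are not on the log scale and several of these genes vary together. All 6 values were high, and they came from 4 livers. Ct-MetS_63 had Pdia6 at 432.1 CPM, against 262.1 to 306.9 CPM in the other Ct-MetS livers. The same liver had Sdf2l1 at 52.4 CPM, against 18.6 to 30.5 CPM, and Calr at 994.6 CPM, against 521.7 to 661.9 CPM. MetS-MetS_39 had Creld2 at 50.6 CPM, against 11.9 to 15.0 CPM in the other MetS-MetS livers. MetS-Ct_85 had Creld2 at 27.9 CPM, against 13.8 to 18.3 CPM in the other MetS-Ct livers. MetS-Ct_120 had Dnajb9 at 79.6 CPM, against 22.6 to 38.1 CPM in the other MetS-Ct livers.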

How the results depend on the processing

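In MetS-MetS against Ct-Ct the count of the 10 genes called was 0 with only those 2 groups in the fit and 0 to 1 when 1 library was left out. DESeq2 called 1, Herpud1, both in MetS-MetS against Ct-MetS (73 of all genes) and with prenatal exposure (165 of all genes), where edgeR called 0. In each of the 8 other comparisons the count was 0 without any 1 library. Of 2070 log2 fold changes of the 10 genes without 1 library, 12 moved by more than 1 SE, 5 lost a call (all Herpud1 in MetS-MetS against Ct-Ct), and 74 of those not called changed sign. Of 690 under the other settings, 1 lost and 2 gained a call. The 12 were of Creld2 and Hspa5 without MetS-MetS_39 and of Dnajb9 without MetS-Ct_120; the cause was not tested. Pathway list counts were rerun under the same settings, a choice made after seeing the data. Each of the 10 genes had at least 217 counts per library; other called genes were shallower, such as Asns at 3.47 to 6.74 CPM in MetS-MetS. No analysis paired by litter was possible because the sources used here do not tie single animals to a litter.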
